A study of Mus musculus with 10 samples.

Results

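Tubb3, Dcx, Map2, Stmn2, Elavl3, Elavl4, Nefl, Nefm, Ina and Prph are 10 genes of the neuronal cytoskeleton and of the neuronal Elavl family. They were taken by symbol from a count table of 52459 symbols. All 10 were found, and all 10 passed the filter on low counts that left 18818 genes for testing. RNA was sequenced from the C57BL/6 mouse embryonic stem cell (ESC) line ES-Bruce4, carried in culture towards neuromesodermal progenitors (NMPs), the posterior embryonic cells that supply spinal cord and trunk mesoderm. Every group began from ESCs kept on mitotically inactive embryo fibroblasts, which were depleted before plating, and received basic Fgf (10 ng/ml) from day 0. The protocol adds CHIR99021 (5 µM), which inhibits Gsk3 and thereby activates Wnt signalling, on day 2, and splits the cells on day 3. Whether the day 2 and day 3 samples were collected before or after these steps is not given in the sources used here. Of the groups without Gdf11, D2 (day 2) is labelled epiblast stem cells, and D3, D6 and D7 (days 3, 6 and 7) are labelled NMPs. The last group, D7G, received human Gdf11 (50 ng/ml), a Tgf-β family ligand, on day 6 for 24 h. Each group had n = 2 libraries, and all 10 came from wild-type cells of that 1 line.

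Neurons build axons and dendrites on microtubules and on intermediate filaments. Tubb3 is the β-tubulin isotype enriched in neurons, and Dcx, Map2 and Stmn2 encode proteins that bind microtubules or tubulin. Nefl, Nefm, Ina and Prph encode filament subunits that assemble together in axons. Elavl3 (HuC) and Elavl4 (HuD) bind AU-rich stretches of mRNAs, and both are widely used as markers of newborn neurons. In the spinal cord many of them are switched on as progenitors leave the cell cycle to become neurons.

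Libraries held 31078950 to 33418015 gene counts. Expression is given as CPM, a gene's count relative to the library's TMM-scaled total, and differences as log2 fold changes ± SE from edgeR. Separate cultures are not stated for the replicates of a group. P values therefore measure the spread of libraries alone, which may be technical. With 2 libraries a group, groups that do not overlap are common: this held for 79.5% of all tested genes in D3 against D2, 82.7% in D6 against D3, 66.4% in D7 against D6, 67.8% in D7G against D7 and 74.4% in D7G against D6. The replicates of a group differed by a median of 1.07-fold over the 10 genes and 5 groups. The widest gap was 1.35-fold, for Stmn2 on D6. The labelled cell types were checked by their defining genes. The pluripotency gene Pou5f1 had mean levels of 565 CPM on D2, 255 on D3, 147 on D6, 128 on D7 and 161 in D7G, and Nanog ranged from 82.1 on D6 to 159 on D3, so both remained detected in every group. Fgf5, an epiblast gene, was at 19.9 CPM on D2 and at most 1.11 later. The NMP gene T was at 0.919 CPM on D2, 232 on D3, 41.7 on D6, 19.8 on D7 and 29.3 in D7G. Nkx1-2 went from 3.45 to 235, 117, 39.9 and 24.8 CPM and Cdx2 from 0.591 to 154, 111, 41.9 and 25.0 in the same order, so all 3 NMP genes were highest on D3. Sox2 ranged over group means of 163 to 232 CPM.

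Promoter sequences are shown for 4 genes that stand for different courses: Dcx, which rose at every step, Elavl3 and Elavl4, paralogues that parted after D3, and Prph, which had the largest fall. They are the 250 bases before a RefSeq start site on GRCm38.p6. Dcx lies at chrX:143933220-143933469 on the minus strand and Elavl3 at chr9:22052024-22052273 on the minus strand. Elavl4 lies at chr4:110287528-110287777 on the minus strand and Prph at chr15:99054924-99055173 on the plus strand. Capitals mark CAGCTG and CAGATG, E-box forms bound by proneural bHLH factors, and TATAAA, the core of the TATA box, searched on both strands with no overlap between matches here.
Dcx: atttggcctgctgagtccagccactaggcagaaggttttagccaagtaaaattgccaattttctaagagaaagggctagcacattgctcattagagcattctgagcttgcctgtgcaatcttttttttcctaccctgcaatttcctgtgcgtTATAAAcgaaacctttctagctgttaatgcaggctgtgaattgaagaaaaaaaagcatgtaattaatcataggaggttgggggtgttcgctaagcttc
Elavl3: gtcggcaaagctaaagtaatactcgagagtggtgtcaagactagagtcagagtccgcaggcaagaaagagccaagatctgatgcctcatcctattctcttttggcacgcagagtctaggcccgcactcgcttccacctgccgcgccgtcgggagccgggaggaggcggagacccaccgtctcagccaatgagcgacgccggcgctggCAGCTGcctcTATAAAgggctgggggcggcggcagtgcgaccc
Elavl4: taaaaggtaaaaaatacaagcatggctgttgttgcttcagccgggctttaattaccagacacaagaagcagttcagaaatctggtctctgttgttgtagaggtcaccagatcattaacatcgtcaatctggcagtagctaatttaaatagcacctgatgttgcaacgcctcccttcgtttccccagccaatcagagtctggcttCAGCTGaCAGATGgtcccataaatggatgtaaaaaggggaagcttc
Prph: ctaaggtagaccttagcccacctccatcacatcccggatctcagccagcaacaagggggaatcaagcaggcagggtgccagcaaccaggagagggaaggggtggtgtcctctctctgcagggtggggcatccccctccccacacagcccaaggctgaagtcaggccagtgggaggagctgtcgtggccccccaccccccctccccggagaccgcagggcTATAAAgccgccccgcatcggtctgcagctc

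CAGCTG began 43 bases before the Elavl3 start and 46 bases before this Elavl4 start, where CAGATG followed 39 bases before the start. TATAAA began 33 bases before the Elavl3 start, 31 bases before the Prph start and 98 bases before the Dcx start. The table held 11 windows for 7 of the 10 genes. Of these, 4 held CAGCTG, 3 CAGATG and 4 TATAAA, and overlapping windows of Dcx and of Elavl4 share matches. The windows of Tubb3 and Map2, which are not shown, held no match to any of these motifs. Every window with CAGATG was of Elavl4. Its window at chr4:110351912-110352161 held no match, and that at chr4:110286835-110287084 held CAGATG alone. Over all 32851 windows of this length the shares were 13.0%, 14.4% and 12.4%. A match describes the letters and does not show binding, and Elavl4 has further start sites whose use the counts do not separate.

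The 10 genes together did not move from low to high along the course. Their summed level was 412 to 420 CPM in the D2 libraries, 294 to 296 on D3, 134 to 140 on D6, 179 to 180 on D7 and 327 to 329 in D7G. The libraries labelled epiblast stem cells thus held more of these transcripts in sum than those of any later group. This did not hold gene by gene. Stmn2, Ina and Prph had means of 98.9, 66.6 and 64.7 CPM on D2 and of 27.5, 12.3 and 1.58 in D7G. Elavl3 and Nefm also had lower means in D7G than on D2, whereas Tubb3, Dcx, Map2, Elavl4 and Nefl had higher ones. The sum was lowest on D6, and the genes reached their lowest levels on different days.

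**Figure D1:**
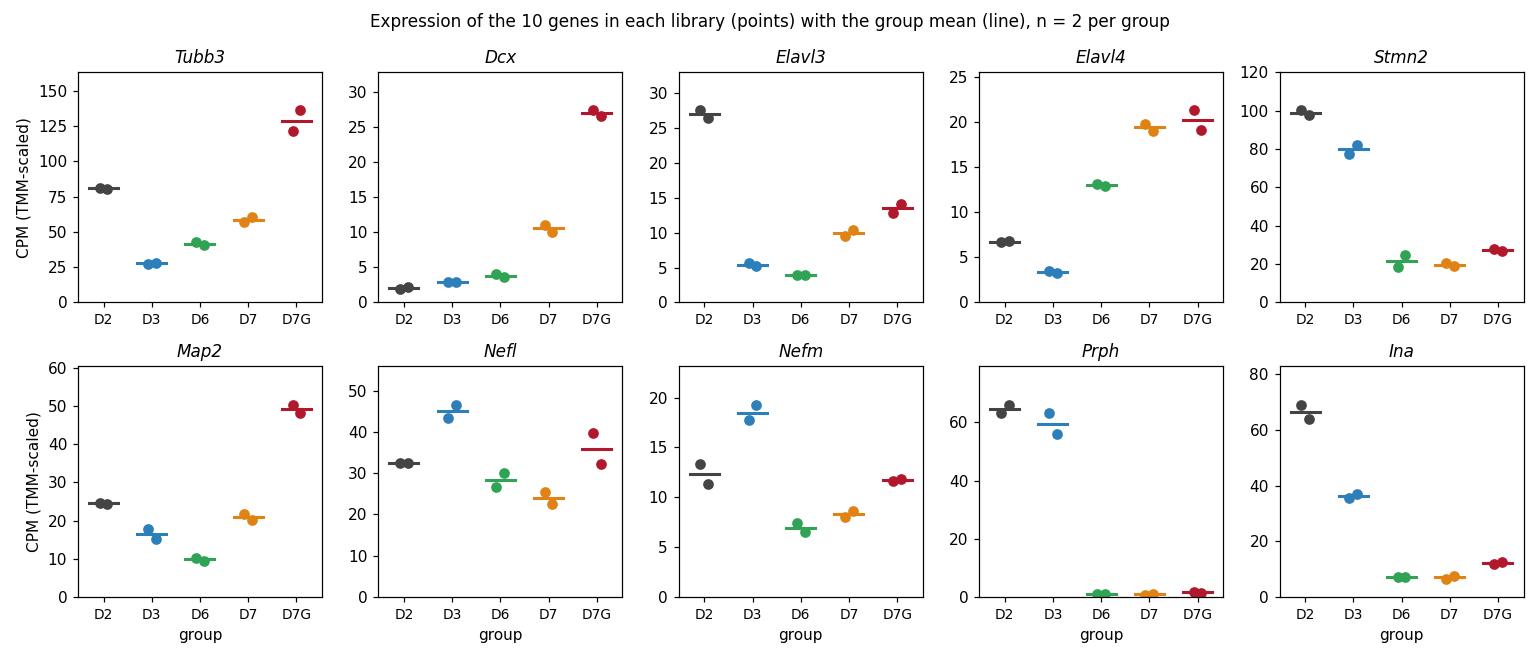
CPM of each of the 10 genes in every library (points, 2 per group) with the group mean (line), each panel on its own axis from 0. Stmn2, Ina and Prph were high on D2 and D3 and low from D6 on, whereas Tubb3, Dcx and Map2 were highest in D7G.

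Among the microtubule genes, Tubb3 was at 81.5 and 80.3 CPM in the D2 libraries, 27.6 and 28.1 on D3, 42.8 and 40.5 on D6, 56.9 and 60.6 on D7, and 122 and 136 in D7G. It was thus high, fell within a day and then climbed, and no pair of groups overlapped. The fall on D3 was -1.54 ± 0.06 on the log2 scale (edgeR adjusted p = 1.62e-14). The rises were 0.58 ± 0.06 to D6 and 0.50 ± 0.06 to D7. D7G stood 1.13 ± 0.05 above D7, a 2.20-fold difference (edgeR adjusted p = 1.23e-12). Other β-tubulin genes share sequence with Tubb3, and how reads that fit several genes were counted is not given in the sources used here.

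Dcx, which stabilises microtubules in migrating neurons, was lowest on D2, at 1.96 and 2.27 CPM. It was at 2.85 and 2.93 CPM on D3, 4.02 and 3.65 on D6, 11.1 and 10.0 on D7, and 27.3 and 26.5 in D7G. Each group lay above the one before it without overlap, and Dcx was the only one of the 10 genes called higher in all 5 comparisons. The early steps were small, 0.45 ± 0.16 to D3 and 0.41 ± 0.14 to D6. The first was not called without D2 replicate 1 (0.35, edgeR adjusted p = 0.148) or D3 replicate 2 (0.44, edgeR adjusted p = 0.0707). The next was not called without D3 replicate 1 (0.39, edgeR adjusted p = 0.0635) or D6 replicate 1 (0.34, edgeR adjusted p = 0.0978). The late steps were 1.46 ± 0.11 from D6 to D7 and 1.35 ± 0.08 for D7G over D7 (edgeR adjusted p = 7.36e-09 and 7.22e-11). D7G exceeded D6 by 7.01-fold, the largest of the 10 differences in that comparison.

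Map2, a stabiliser of dendritic microtubules, had 24.7 and 24.4 CPM on D2, 17.9 and 15.1 on D3, 10.2 and 9.49 on D6, 21.8 and 20.2 on D7, and 50.3 and 48.1 in D7G. It fell in 2 steps (-0.57 ± 0.08 and -0.75 ± 0.09) and recovered by D7 (1.09 ± 0.09) to just under its D2 level. With Gdf11 it was 2.34-fold above D7 (1.23 ± 0.07, edgeR adjusted p = 2.56e-11).

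Stmn2, a tubulin-binding phosphoprotein of growth cones, followed another course. It had 100.1 and 97.6 CPM on D2, 77.3 and 82.3 on D3, 18.2 and 24.7 on D6, 20.5 and 19.0 on D7, and 28.0 and 27.0 in D7G. D2 and D3 libraries were high and all later ones low, with D6 and D7 overlapping. The main fall came between D3 and D6 (-1.89 ± 0.08, 3.72-fold, edgeR adjusted p = 7.31e-14). D7G was above D7 by 0.48 ± 0.09 (edgeR adjusted p = 2.69e-04) and stayed far below the D2 level. D7 against D6 was not called (-0.12 ± 0.09), but was without D6 replicate 1 (-0.32, edgeR adjusted p = 0.00388). D7G against D6 was 0.36 ± 0.09, and 0.16 without D6 replicate 1 (edgeR adjusted p = 0.101).

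The Elavl paralogues both fell on D3 and then parted. Elavl3 was at 27.6 and 26.4 CPM on D2, 5.70 and 5.18 on D3, 3.89 and 3.87 on D6, 9.48 and 10.4 on D7, and 12.9 and 14.1 in D7G. Its D2 libraries were the highest, and no pair of groups overlapped. The fall on D3 was 4.96-fold (-2.31 ± 0.09, edgeR adjusted p = 2.29e-14), the largest of the 10 genes at that step. Elavl3 rose by 1.36 ± 0.11 from D6 to D7 and was 0.44 ± 0.09 higher in D7G than in D7 (edgeR adjusted p = 4.51e-04).

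Elavl4 had 6.65 and 6.78 CPM on D2, 3.49 and 3.30 on D3, 13.2 and 12.9 on D6, 19.8 and 19.0 on D7, and 21.3 and 19.1 in D7G. It had already risen 3.84-fold by D6 (1.94 ± 0.10, edgeR adjusted p = 1.91e-12), while Elavl3 fell by 0.49 on the log2 scale over the same days. Elavl4 rose further to D7 (0.57 ± 0.08). Its D7 and D7G libraries overlapped, and it was the only one of the 10 genes not called between them (0.06 ± 0.07, edgeR adjusted p = 0.572). Of the other family members, Elavl1 (HuR), which is broadly expressed, ranged over group means of 135 to 170 CPM. Elavl2 (HuB) fell by 0.79 on D3, rose by 0.43 to D6 and was not called with Gdf11 (0.11 ± 0.06, edgeR adjusted p = 0.212).

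Of the filament genes, Prph encodes peripherin, typical of peripheral and motor neurons. It had 63.2 and 66.1 CPM on D2, 63.1 and 56.1 on D3, 0.933 and 0.936 on D6, 0.808 and 1.02 on D7, and 1.79 and 1.37 in D7G. The 4 early libraries were high and all 6 later ones low, with 27 to 57 counts each against 1819 or more. D6 was 63.5-fold below D3 (-5.99 ± 0.12, edgeR adjusted p = 1.27e-18). D7G was above D7 by 0.78 ± 0.23 (edgeR adjusted p = 0.0102), and this call was lost without D7 replicate 1 (0.60, edgeR adjusted p = 0.110) or D7G replicate 1 (0.55, edgeR adjusted p = 0.154). D7G against D6 was 0.75 ± 0.23, and 0.49 without D7G replicate 1 (edgeR adjusted p = 0.186). D3 against D2 was not called (-0.12 ± 0.06), but was without D3 replicate 1 (-0.19, edgeR adjusted p = 0.0440).

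Ina, α-internexin, which appears early in developing neurons, had 69.1 and 64.1 CPM on D2, 35.4 and 36.9 on D3, 7.11 and 7.33 on D6, 6.58 and 7.65 on D7, and 12.0 and 12.5 in D7G. It fell at both early steps, by 5.01-fold at the later one (-2.32 ± 0.08, edgeR adjusted p = 1.97e-15). D6 and D7 overlapped (-0.02 ± 0.10). D7G lay above both, by 0.79 ± 0.09 over D7 (edgeR adjusted p = 7.75e-07). Exons of Nt5c2, on the other strand, overlap 14.1% of the Ina exon length.

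Nefl and Nefm, the light and medium neurofilament subunits, were highest on D3. Nefl had 32.4 and 32.3 CPM on D2, 43.3 and 46.5 on D3, 26.7 and 30.1 on D6, 25.3 and 22.4 on D7, and 39.7 and 32.1 in D7G. Nefm had 13.4 and 11.3 CPM on D2, 17.7 and 19.3 on D3, 7.40 and 6.49 on D6, 7.99 and 8.61 on D7, and 11.6 and 11.8 in D7G. Both thus rose on D3, fell by D6 and were higher with Gdf11. Nefl rose by 0.47 ± 0.08 on D3 and fell by 0.66 to D6, and Nefm rose by 0.58 ± 0.09 and fell by 1.41. D7G exceeded D7 by 0.59 ± 0.09 for Nefl and 0.50 ± 0.10 for Nefm (edgeR adjusted p = 1.50e-05 and 4.84e-04).

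Both genes lie on chromosome 14 on opposite strands, and their exons overlap over 1108 bases (chr14:68083863-68084970, mm10), 32.8% of the Nefl and 19.2% of the Nefm exon length. Whether counting used strand is not given in the sources used here. In the other deposited count table Nefl had 0.602 to 0.676 times the counts of the table used, and Nefm 0.985 to 1.10 times. The D7 against D6 calls of this pair differed between these tables, with similar log2 fold changes. In the table used Nefl was called lower (-0.25 ± 0.09, edgeR adjusted p = 0.0323), and in the other table it was not called (-0.19, edgeR adjusted p = 0.0897). It was also not called without D6 replicate 2 (-0.16, edgeR adjusted p = 0.255) or D7 replicate 2 (-0.20, edgeR adjusted p = 0.198). Nefm was not called (0.26 ± 0.11, edgeR adjusted p = 0.0758), but was in the other table (0.31, edgeR adjusted p = 0.0308). D7G against D6 was 0.34 ± 0.08 for Nefl, and 0.12 without D7G replicate 1 (edgeR adjusted p = 0.276). The heavy subunit gene Nefh had 21.5 ± 0.179 CPM on D2, 11.3 ± 0.425 on D3 and 1.68 ± 0.224 on D6 (mean ± SD, n = 2), and was called lower at both steps.

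**Figure D2:**
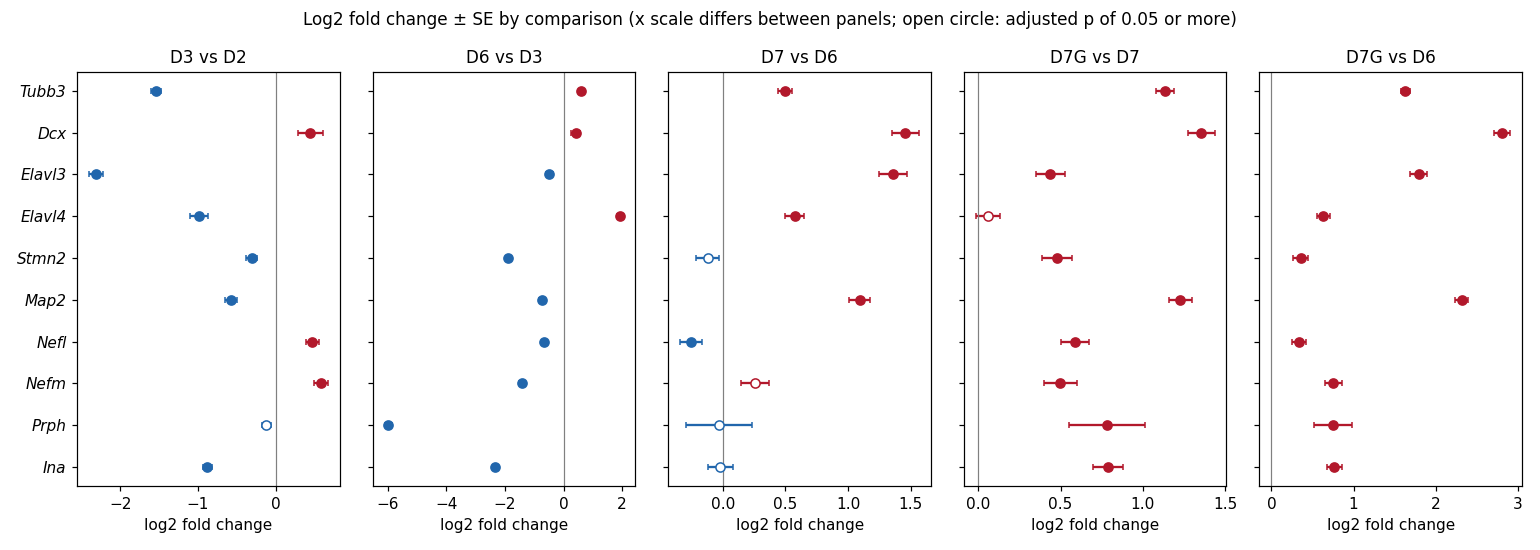
Log2 fold change ± SE of the 10 genes in the 5 comparisons, red above and blue below 0, with open circles where the edgeR adjusted p was 0.05 or more. All 10 genes lie above 0 in D7G against D6, and Elavl4 alone is open in D7G against D7.

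Read by comparison, more of these genes fell than rose between day 2, when the protocol adds CHIR99021, and day 3. Of the 10, 9 were called between D2 and D3 (58.5% of all tested genes were). Of these, 6 fell (28.9% of all tested genes fell) and 3 rose (29.6%), and Prph was not called. The median log2 fold change was -0.44, against 0.00 over all tested genes. Elavl3, Tubb3 and Elavl4 fell the most, and the neurofilament pair and Dcx were the rises. DESeq2 called 8 of the 10, with Stmn2 lost (-0.30, DESeq2 adjusted p = 0.0510).

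From D3 to D6 all 10 genes changed, as did 65.7% of all tested genes. Of them 7 fell (33.3% of all tested genes) and 3, Tubb3, Dcx and Elavl4, rose (32.4%), with a median of -0.70 against -0.01 over all tested genes. The falls ranged from -0.49 for Elavl3 to -5.99 for Prph. From D6 to D7, 6 were called (36.0% of all tested genes were): 5 rose (20.5%), Nefl fell (15.6%) and 4 were not called. The 5 were Dcx, Elavl3, Map2, Elavl4 and Tubb3, and Stmn2, Nefm, Prph and Ina were the 4 without a call. The median was 0.38, against 0.04 over all tested genes.

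With 24 h of Gdf11, 9 of the 10 genes were higher than in untreated D7 cells (22.5% of all tested genes were) and 0 were lower (18.2%), where 40.7% were called in either direction. At an unadjusted edgeR p under 0.05 also 0 were lower, and DESeq2 and limma-voom called 0 lower. The median was 0.68, against 0.02 over all tested genes. Dcx, Map2 and Tubb3 rose more than 2-fold, Ina and Prph by 1.72-fold each, and Nefl, Nefm, Stmn2 and Elavl3 by 1.35- to 1.50-fold. Against D6, the cells to which Gdf11 was added, all 10 were higher (30.6% of all tested genes were, 22.2% were lower and 52.8% were called), from 0.34 for Nefl to 2.81 for Dcx. This comparison shares its D7G libraries with the previous one and is not independent of it. RNA of a whole dish was pooled, so fewer cells of a type and less RNA per cell cannot be told apart.

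Levels of different genes were compared as CPM per kb of exon, where the exon length is the union of all annotated exons and is longest for Map2 (16449 bases) and Dcx (12647 bases), whose values it lowers. On D2 the order was Tubb3 (43.3 ± 0.435), Prph (34.7 ± 1.07), Ina (20.5 ± 1.09), Stmn2 (17.6 ± 0.314) and Nefl (9.57 ± 0.00269). Elavl3 (3.92 ± 0.119), Nefm (2.14 ± 0.248), Map2 (1.49 ± 0.0109), Elavl4 (1.25 ± 0.018) and Dcx (0.168 ± 0.0172) followed. No neighbours in this order were within their SD of each other. In D7G Tubb3 still led, at 69.0 ± 5.49, ahead of Nefl (10.6 ± 1.58) and Stmn2 (4.91 ± 0.12). Ina (3.79 ± 0.114) and Elavl4 (3.75 ± 0.284) did not differ beyond their spread, and Map2 followed at 2.99 ± 0.0955. Dcx (2.13 ± 0.0475), Nefm (2.03 ± 0.0224) and Elavl3 (1.96 ± 0.133) were next, with Nefm and Elavl3 within their spread, and Prph, the second on D2, was the lowest at 0.846 ± 0.159.

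**Figure D3:**
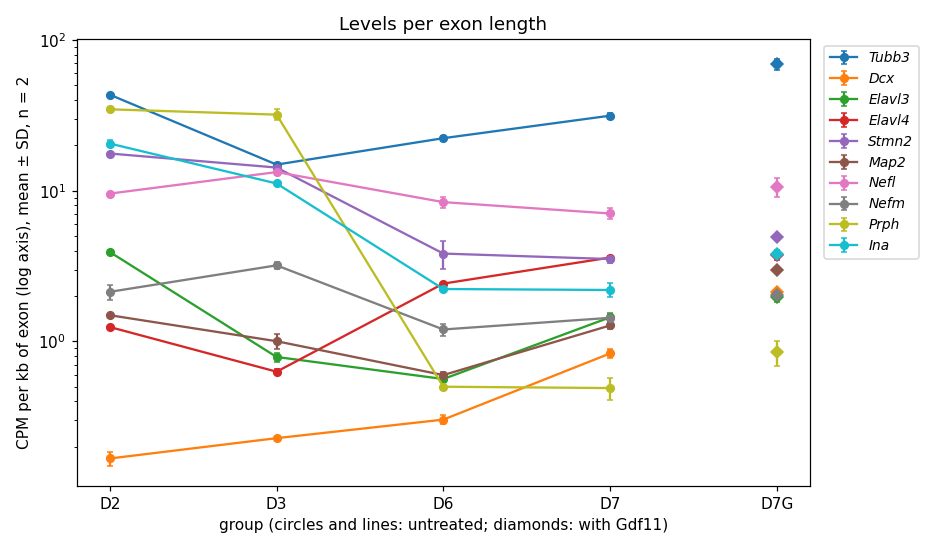
Mean CPM per kb of exon ± SD (n = 2, log axis) of the 10 genes, with circles and lines for untreated groups and diamonds for D7G. Prph went from 32.0 on D3 to 0.501 on D6 while Elavl4 went from 0.631 to 2.42, so the order of the genes changed along the course.

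Likeness between courses was measured as the root mean square difference of log2(CPM + 1) over the 10 libraries, after each gene was centred on its own mean. Within the set the closest pairs were Nefl and Nefm (0.26), Stmn2 and Ina (0.32) and Tubb3 and Map2 (0.42). The Nefl and Nefm value includes the overlap of their exons. Among 11643 other genes, the closest to Dcx were Nhlh2 (0.17), Robo3 (0.19) and Scrt2 (0.22). Nhlh2 is a bHLH factor of postmitotic neurons, Robo3 an axon guidance receptor of commissural neurons, and Scrt2 a neuronal zinc finger factor. Nhlh2 went from 0.608 CPM on D2 to 4.47 on D7 and 16.2 in D7G. Closest to Elavl3 were Insm1 (0.20), Cdk5r2 (0.23) and Ebf1 (0.23), of which Insm1 encodes a zinc finger factor of differentiating neurons. Closest to Tubb3 were St8sia2 (0.13), a polysialyltransferase gene, Gfra1 (0.19) and Hes6 (0.27).

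For Stmn2 the closest were Kif5a (0.08), a neuronal kinesin, Klf9 (0.09) and Lrp11 (0.14). For Ina they were Tmem59l, Foxh1 and Bcl6b (0.16 to 0.17), and Foxh1 is a Smad partner of the early embryo. Elavl4 lay closest to Ackr3 (0.16), Vegfa (0.19) and Cntln (0.19), of which Ackr3 encodes a chemokine receptor and Vegfa a growth factor of vessels. Map2 lay closest to Dact3 (0.23), Serinc2 (0.25) and Rassf4 (0.25). Nefl lay closest to Galnt10 (0.08), Rnf128 (0.08) and Il13ra1 (0.10), and Nefm to Zfp296 (0.10), Lif (0.10) and Plxdc2 (0.11). Picked as the closest of 11643 genes, all of these were closer to Nefl or Nefm than the pair was to each other (0.26). Prph had no close neighbour: Gstt2 was at 0.80, and Actn3 and Lox at 0.90. These values describe 10 libraries of 5 groups with shared depth and scaling, and carry no test.

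The genes around the set were read from lists of related genes. Of 18 other genes of neuronal microtubules and growth cones, 9 fell and 7 rose on D3 (28.9% and 29.6% of all tested genes), 14 rose and 0 fell from D6 to D7 (20.5% and 15.6%), and 12 were higher and 1 lower in D7G than in D7 (22.5% and 18.2%). From D6 to D7 also 0 of the 18 were lower at an unadjusted edgeR p under 0.05, and 0 by DESeq2 or limma-voom. Dclk1, the closest relative of Dcx, had 31.4 ± 1.75 CPM on D7 and 116 ± 8.17 in D7G (1.89 ± 0.07, edgeR adjusted p = 9.22e-14). The stathmin gene Stmn4 was higher by 0.85 ± 0.18 and Stmn3 by 0.68 ± 0.15. Mapt (tau, 0.23 ± 0.17) and the growth cone gene Gap43 (0.00 ± 0.08) were not called. Tuba1a, an α-tubulin abundant in young neurons, fell by 1.29 on D3 and was 0.52 ± 0.04 higher in D7G than in D7. Of 10 broadly expressed relatives of these genes, such as Tubb5, Tuba1b and Map4, 3 were higher and 5 lower with Gdf11 (22.5% and 18.2% of all tested genes), with a median of -0.06.

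Neuronal transcription factors moved with the set in the last steps. Of 19 listed, 17 were tested, of which 11 rose and 0 fell from D6 to D7 (20.5% and 15.6% of all tested genes), with a median of 1.10. In D7G 11 were higher and 1 lower than in D7 (22.5% and 18.2% of all tested genes), or 7 and 0 by DESeq2. Nhlh1, of newborn neurons, rose by 2.31 ± 0.18 to D7 and had 8.98 ± 1.27 CPM on D7 and 8.34 ± 1.02 in D7G (-0.11 ± 0.14, edgeR adjusted p = 0.581). Nhlh2 was 1.86 ± 0.12 higher with Gdf11. On D2, where several members of the set were at their highest, the 19 factors summed to 40.9 to 42.6 CPM. The sum was lower on D3 (31.6 to 33.6) and D6 (35.3 to 37.1), and higher on D7 (70.6 to 76.8) and in D7G (116 to 117).

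Of 10 synapse and vesicle genes, 7 were higher with Gdf11 by edgeR (22.5% of all tested genes were), and 5 by DESeq2. The largest rises were those of Cplx2 (2.57 ± 0.07), a regulator of vesicle fusion, and Syn1 (1.43 ± 0.16). Of 11 neuronal RNA-binding protein genes 5 were higher and 1 lower (4 and 0 by DESeq2), with Srrm4, a neural splicing factor, at 0.66 ± 0.09. The neural progenitor list went the other way: 7 of 9 were lower in D7G than in D7 by edgeR (18.2% of all tested genes were), and 6 by DESeq2. Among them were Hes5 (-0.91 ± 0.08), Sox1 (-0.68 ± 0.06) and Pax6 (-0.56 ± 0.09), and 1 of the 9 was higher by edgeR. From D6 to D7, 7 of these 9 had risen, beside 20.5% of all tested genes. Rest, the repressor of neuronal genes outside neurons, had 213 ± 6.58 CPM on D2, 160 ± 2.68 on D3, 134 ± 13.6 on D6, 117 ± 15.5 on D7 and 153 ± 16.3 in D7G. Its mean was thus highest on D2, as were those of Stmn2, Ina, Elavl3 and Prph. Those of Nefl and Nefm were highest on D3, and those of Tubb3, Dcx, Map2 and Elavl4 in D7G. Rest was 0.39 ± 0.07 higher in D7G than in D7 (edgeR adjusted p = 2.96e-04). Its part in these courses was not tested.

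**Figure D4:**
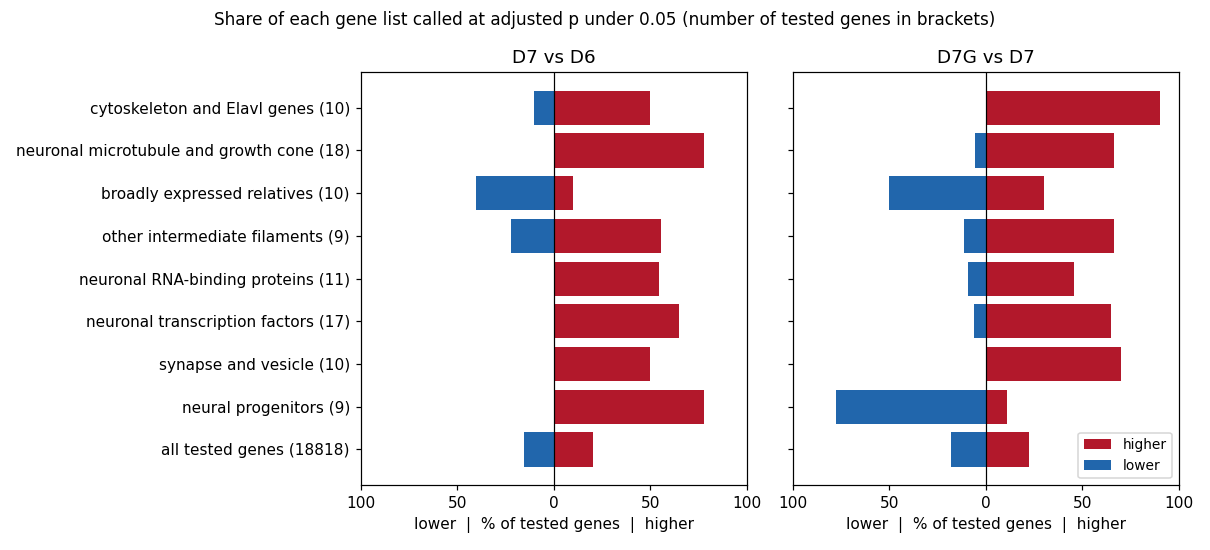
Percent of the tested genes of each list called higher (red) or lower (blue) at an edgeR adjusted p under 0.05, for D7 against D6 and D7G against D7. The 10 cytoskeleton and Elavl genes have 9 higher and 0 lower in D7G against D7, beside 22.5% and 18.2% of all tested genes, and 7 of 9 neural progenitor genes were lower.

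Markers of other cells were summed in the same libraries. The 8 motor neuron genes summed to 5.70 to 5.73 CPM on D2, 14.4 to 14.9 on D3, 3.22 to 3.29 on D6, 3.38 to 4.28 on D7 and 5.14 to 5.60 in D7G, with 1 of them at 0 counts on D6 and in D7G. Mnx1 had means of 1.58 CPM on D2, 10.9 on D3 and 2.19 on D6, so the sum on D3 is mostly that gene. From D2 to D3, 2 of the 6 tested rose and 1 fell (29.6% and 28.9% of all tested genes). From D3 to D6, 0 of the 6 rose and 5 fell (32.4% and 33.3%). The 8 neural crest and peripheral neuron genes summed to 26.3 to 28.1 CPM on D2, 16.4 to 16.5 on D3, 28.4 to 28.7 on D6, 31.5 to 33.1 on D7 and 16.6 to 17.4 in D7G, with none at 0 in any group. This sum follows Ret, a receptor gene with means of 7.62 CPM on D3, 21.6 on D6, 24.7 on D7 and 5.79 in D7G. Without Ret the other 7 summed to 22.9 to 24.5 CPM on D2, 8.61 to 9.04 on D3, 6.40 to 7.49 on D6, 7.21 to 8.04 on D7 and 10.9 to 11.5 in D7G. Foxd3 had means of 15.7 CPM on D2 and 1.55 on D3, so this sum on D2 is mostly that gene. From D3 to D6, 5 of the 8 fell and 2 rose (33.3% and 32.4% of all tested genes), and in D7G against D7 2 were higher and 1 lower (22.5% and 18.2%). Of these 8, Sox10 had 1.35 ± 0.0410 CPM on D2, 1.21 ± 0.233 on D3 and 0.129 ± 0.0453 on D6. The 7 embryo fibroblast genes summed to 145 to 181 CPM on D2, 285 to 293 on D3, 185 to 197 on D6, 301 to 324 on D7 and 946 to 1097 in D7G, with none at 0 in any group. From D3 to D6 6 of these 7 fell and Col3a1 rose, from 27.5 to 173 CPM. Without Col3a1 the other 6 summed to 125 to 156 CPM on D2, 257 to 266 on D3, 17.0 to 18.8 on D6, 50.5 to 51.2 on D7 and 348 to 378 in D7G. Their sum fell between D3 and D6, as did Prph. In D7G, where Prph had a mean of 1.58 CPM, the sum was above its D3 level. Of these genes only Col1a1 (98.1 CPM on D3, 241 in D7G) and Lum (0.492 and 15.2) exceeded their D3 means in D7G. Col1a2 (108 and 86.7), Postn (39.4 and 17.9), Thy1 (7.79 and 1.11) and Dcn (8.10 and 0.671) were below theirs. In D7G 6 of the 7 fibroblast genes were higher than in D7 and 0 lower (22.5% and 18.2% of all tested genes), where 9 of the 10 cytoskeleton and Elavl genes were higher. Of the endoderm genes, Sox17, Foxa2 and Gata4 (3 of 3 tested) were also higher in D7G than in D7, as were 4 of 6 epiblast genes, with 0 lower in either list, beside the same shares of all tested genes. In these 3 lists 0 genes were lower at an unadjusted edgeR p under 0.05 or by DESeq2 or limma-voom. The 4 endoderm genes summed to 22.2 to 23.8 CPM on D2, 53.5 to 61.2 on D3, 51.6 to 60.1 on D6, 65.4 to 68.9 on D7 and 86.3 to 109 in D7G, with 1 at 0 on D7. The 6 epiblast genes summed to 2329 CPM on D2, 571 to 584 on D3, 282 to 337 on D6, 271 to 278 on D7 and 310 to 352 in D7G, with none at 0. Of 6 presomitic mesoderm genes 2 were higher and 2 lower with Gdf11, and 3 skeletal muscle genes were too low to test. The part of such cells in the results was not tested.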

How the data were processed

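RNA-seq of 10 libraries in 5 groups was used as raw counts per gene symbol, deposited by the authors. Per the submitters' processing notes, the tools were STAR, featureCounts 1.6.3, HISAT2 2.1.0 and limma, with the mm10 build, and neither the role of each nor the counting options are given in the sources used here. The exon length per gene (bases) is that of the deposited count tables. No column belonged to other samples (0 columns), and every row named a gene. The members and gene lists were chosen with earlier results of these data known.

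The deposited counts were fitted with edgeR 4.0.16 in R 4.3.3. One quasi-likelihood fit of all 10 libraries had 1 coefficient per group, TMM scaling and the default filterByExpr, which kept 18818 genes. Adjusted p values are Benjamini-Hochberg values over these genes in each of the 5 comparisons, with 0.05 as the threshold for a call. Each SE follows from the log2 fold change and its F value. The fit had 5 residual degrees of freedom, and the groups share its estimate of the spread, moderated across genes. It was tested on simulated data. The text names the 10 genes, Rest, the defining genes T, Sox2, Nkx1-2, Cdx2, Pou5f1 and Fgf5, list genes from the 3 largest called changes per list and comparison, and the 3 genes most like each of the 10 in course, among genes that reach 5 CPM in a group and have neither a predicted nor a clone name. Elavl1, Elavl2, Nefh, Stmn3, Stmn4, Tuba1a, Mapt, Gap43, Srrm4, Nhlh1, Sox10, Nes, Vim, Krt18 and Synm, Tubb5, Map4, Nanog and Col3a1 are named as relatives or markers, in part outside that rule and after their values were seen. Promoter motifs, and the sums without Ret or Col3a1, were also chosen then.

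Alternatives were DESeq2 1.42.0, limma-voom (limma 3.58.1), other scaling factors, no filter, a minimum of 1 CPM in 2 libraries, the authors' other deposited count table (55298 Ensembl genes, 98.4% with a symbol), fits to the compared groups alone, the replicate number as a block, and omission of each library in turn. The authors' deposited table of fold changes was not used here.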

Additional observations from a re-analysis of the deposited data

How the results depend on the processing

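Over 10 alternatives and 5 comparisons, the number of the 10 genes called equalled the reported one in 48 of 50 cases. The exceptions were DESeq2 for D3 against D2 (8, against 9) and no filter for D7 against D6 (5, against 6). With 1 library left out, 8 to 10 genes were called in D3 against D2, 9 to 10 in D6 against D3, 5 to 7 in D7 against D6, 8 to 9 in D7G against D7 and 8 to 10 in D7G against D6. The lone library left in its group is taken to vary as other groups do. Of 1000 recomputed calls of single genes, 981 kept their direction and their side of the threshold, 15 were lost, 4 were gained and 0 reversed. With library totals in place of TMM, Nefl was not called in D7 against D6 (-0.22, edgeR adjusted p = 0.0682) and Nefm was (0.29, edgeR adjusted p = 0.0441). Without a filter Nefl was also not called there (-0.28, edgeR adjusted p = 0.0503). The cause was not tested.

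No pairing by replicate number was seen: deviations of same-numbered libraries correlated at -0.0758 to 0.0999 between groups. Such values cannot show whether same-numbered libraries shared a culture or a run. With the replicate number as a block, 9, 10, 6, 9 and 10 genes were called in the order of the comparisons above, as without it. Depth limits Prph from D6 on, with 27 to 57 counts per library.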

Other observations

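Of 9 other intermediate filament genes, 6 were higher and 1 lower in D7G than in D7 by edgeR (22.5% and 18.2% of all tested genes), and 4 and 1 by DESeq2. Vim, the filament of progenitors and mesenchyme, rose in every step, from 107 ± 3.03 CPM on D2 to 424 ± 0.322 on D7 and 692 ± 68.1 in D7G (mean ± SD, n = 2). Nes, a filament gene of neural progenitors, was at 201 ± 5.54 CPM on D7 and 220 ± 0.326 in D7G (0.13 ± 0.05, edgeR adjusted p = 0.0327). The keratin gene Krt8 went from 35.5 ± 0.577 CPM on D2 to 190 ± 35.7 on D3 and back to 55.3 ± 4.13 on D6, and was 1.03 ± 0.10 higher in D7G than in D7. Krt18, its partner in simple epithelia, followed with 50.8 ± 0.831, 174 ± 39.2 and 58.9 ± 0.126 CPM. The means of both were highest on D3, as were those of Nefl and Nefm, but Krt18 had 147 ± 20.0 CPM in D7G, within the spread of D3. Synm, which encodes synemin, also peaked on D3 (28.7 ± 0.179 CPM) and was not called with Gdf11 (-0.11 ± 0.11, edgeR adjusted p = 0.487).

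Genes of neuronal RNA processing and of the proneural step did not move as a block. Rbfox1, a neuronal splicing factor gene, had 0.300 ± 0.126 CPM on D7 and 3.76 ± 1.24 in D7G (3.63 ± 0.33, edgeR adjusted p = 2.80e-08), while Rbfox3 (NeuN) was at 1.50 ± 0.0782 and 1.12 ± 0.0949 CPM (-0.42 ± 0.22, edgeR adjusted p = 0.145). Celf5 fell by 2.61 on the log2 scale from D3 to D6, next to Prph, Ina and Stmn2. Neurog2, a proneural bHLH gene, rose by 3.40 ± 0.20 over those days, while Neurog3 fell by 5.08. Neurog2 was then at 9.32 ± 0.912 CPM on D7 and 7.98 ± 1.13 in D7G (-0.22 ± 0.12, edgeR adjusted p = 0.147), beside the rise of Dcx and Tubb3 between the same groups.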
